A study of Mus musculus with 3 samples.

Results

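Egr1, Egr2, Egr3, Nab1, Nab2, Nr4a1, Nr4a2 and Nr4a3 are 8 immediate early regulators or close partners of such regulators, chosen by gene symbol from a table of 16072 named genes, and all 8 were found. They were chosen with the values of these same libraries known, so their levels and differences are given as a description. The libraries were made from bone marrow (BM) Ly6G+ myeloid cells of C57BL/6 mice, a surface phenotype borne mainly by neutrophils. All mice carried subcutaneous B16.F10 melanoma, implanted 1 week ahead of an intramuscular dose of adeno-associated virus (AAV) vector, so that the tumour is shared by both groups. The AAV-Ctrl group (2 libraries) received the empty vector and the AAV-IL-27 group (1 library) received a vector that encodes mouse interleukin-27 under the broadly active CAG promoter, so that muscle and other transduced cells release the cytokine into the whole animal. Cells were collected 3 weeks after the vector, and the age and sex of these mice are not given in the sample labels.

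The Egr proteins are zinc finger transcription factors whose genes are switched on within minutes of a stimulus, usually through the Ras to ERK kinase cascade and serum response factor (SRF), and without new protein synthesis. Nab1 and Nab2 bind Egr proteins and repress their targets, in part through the NuRD chromatin complex, and Nab2 is itself a known Egr target, which closes a negative feedback loop. Nr4a1 (Nur77), Nr4a2 (Nurr1) and Nr4a3 (Nor1) are orphan nuclear receptors induced by many of the same stimuli, often through cyclic AMP response elements, and in myeloid cells Nr4a1 is best known for its need in patrolling monocytes.

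Upstream stretches of Egr2, Nr4a1 and Nr4a3 are shown as examples of promoters that hold motifs used by such stimuli, to be read beside the levels of these genes, and those of Nab1, Nab2 and Nr4a2 are described by their matches alone. They come from RefSeq on GRCm38.p6, which held a window for 6 of the 8 genes. Egr2 had 5 windows, of which that at the GENCODE start of its listed transcript is used. Capitals mark matches, on either strand, to the CArG box bound by SRF, to TGACG (the short form of the cyclic AMP response element), to TGCGTCA and to the Egr site GCGNGGGCG, and each stretch is printed 5′ to 3′ on the strand of its gene. Egr2 lies at chr10:67537619-67537868 (plus strand), Nr4a1 at chr15:101266596-101266845 (plus strand) and Nr4a3 at chr4:48045055-48045152 (plus strand). The first 2 end just before the start of the RefSeq transcript and lie inside the longer gene spans of the GENCODE M21 annotation, and the Nr4a3 stretch ends just before the earlier gene start of that annotation.
Egr2: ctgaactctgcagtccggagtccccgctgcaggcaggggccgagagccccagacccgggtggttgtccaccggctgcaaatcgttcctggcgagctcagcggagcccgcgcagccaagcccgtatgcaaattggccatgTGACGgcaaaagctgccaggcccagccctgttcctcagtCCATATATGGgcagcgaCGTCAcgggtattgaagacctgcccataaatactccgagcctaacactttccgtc
Nr4a1: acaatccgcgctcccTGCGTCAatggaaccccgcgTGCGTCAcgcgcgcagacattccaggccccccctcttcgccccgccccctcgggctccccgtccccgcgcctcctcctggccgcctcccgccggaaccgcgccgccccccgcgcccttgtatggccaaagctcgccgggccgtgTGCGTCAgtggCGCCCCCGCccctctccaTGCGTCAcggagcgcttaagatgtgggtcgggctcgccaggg
Nr4a3: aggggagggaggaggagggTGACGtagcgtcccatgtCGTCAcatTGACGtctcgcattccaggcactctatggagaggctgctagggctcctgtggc

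The CArG box of Egr2, CCATATATGG, lies 72 to 63 bases before the start, and 1.47% of 32851 RefSeq windows of 250 bases held a CArG box. TGCGTCA was present 4 times before Nr4a1, against at least 1 match in 1.75% of windows. TGACG, whose reverse complement lies within TGCGTCA, was found in 17.8% of windows, with 4 matches each in the full windows of Nr4a1, Nr4a2 and Nr4a3 and 2 in that of Egr2. GCGNGGGCG, found in 4.70% of windows, matched 3 times in the window of Nab1, which also held 1 TGCGTCA, and once each before Nr4a1 and Nr4a2. The Nab2 window held no match to any of the motifs searched, among them the whole cyclic AMP response element TGACGTCA (1.55% of windows) and the Nr4a monomer site AAAGGTCA (1.34%). The last 2 were absent from the other 5 windows as well. The windows of Nab1 and Nr4a3 begin at RefSeq starts 231 and 152 bases away from the nearest GENCODE start of the listed transcripts. The 6 windows were richer in G and C (61.6% to 80.8%) than the median of all windows (52.4%), and the shares were not matched for this. The matches are letters in a window and were not tested for binding.

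Levels were taken from the FPKM values the authors deposited, which scale fragments by transcript length and by the depth of the library and can be compared between genes. The table gives no counts. The spacing of the lowest values gave estimated depths of 18600000 and 18900000 fragments for the AAV-Ctrl libraries and 18900000 for AAV-IL-27, with 75.0% to 76.6% of the low values within 0.15 of a whole fragment, so fragment numbers below are estimates. Their 95% Poisson intervals allow for counting error alone and not for spread between mice. Intervals that do not overlap therefore do not show a difference between the groups. Those of Nr4a1, for one, did not overlap between AAV-Ctrl 1 (777 to 892) and AAV-Ctrl 2 (555 to 652). All differences are on the log2(FPKM + 1) scale, AAV-IL-27 minus one AAV-Ctrl library or minus the mean of both, a scale that understates the differences of genes with low values. A gene was called higher or lower when it lay at least 1 log2 unit above or below each AAV-Ctrl library. No p-value was computed, because the 1 AAV-IL-27 library gives no replicate error, and each difference is set beside that between the AAV-Ctrl libraries, whose median size over 9130 genes averaging 1 FPKM or more was 0.087 and whose 99th percentile was 0.57.

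Markers of the labelled cell type were present in all 3 libraries. Ly6g, which gives the label its name, stood at 712 and 766 FPKM in AAV-Ctrl and 586 with AAV-IL-27. S100a9, a subunit gene of calprotectin, stood at 73508 and 71786 FPKM in AAV-Ctrl and 68765 with AAV-IL-27, and all 15 neutrophil markers averaged 1 FPKM or more with none called in either direction. Of the 15, 5 lay above both AAV-Ctrl libraries and 7 below both, where 38.9% and 41.9% of the 9130 genes did. Markers of other cells were present too and differed between the groups. Of 15 macrophage markers averaging 1 FPKM or more, 13 were called lower in AAV-IL-27, where 2.32% of the 9130 genes were. The macrophage markers had a summed level of 994 to 1023 FPKM in AAV-Ctrl and 359 with AAV-IL-27. All 12 erythroid markers and 4 of 6 B cell markers were called lower too. In bulk RNA fewer cells of a type and less RNA per cell cannot be told apart.

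In the AAV-IL-27 library, Egr1, Egr2, Egr3 and Nab2 were higher than in either AAV-Ctrl library by between 5.36 and 6.62 times the higher AAV-Ctrl value, and Nr4a1 by 1.93 times. Nr4a3 was 7.86 times as high at a very low level, Nab1 1.24 times, and Nr4a2 was level with AAV-Ctrl 1. Thus 7 of the 8 genes lay above both AAV-Ctrl libraries and none below both, where 29.6% of all named genes lay above both by any margin. By the call rule, 4 of the 8 were higher and 0 lower, against 0.307% of genes called higher and 2.32% called lower among the 9130 (28 and 212 genes). Over all 16072 named genes, with no filter on low values, the shares were 0.187% and 1.33%. With the filter set on the AAV-Ctrl mean instead, 1 of the 8 (Egr1) was called higher, against 0.269% of genes. These shares are printed for scale only, because the genes were picked from this contrast. Only 3 of the 8 genes (Egr1, Nab1 and Nr4a1) reached a mean of 1 FPKM in AAV-Ctrl. Egr2, Egr3 and Nab2 passed the filter on low values through their AAV-IL-27 value alone, and Nr4a2 and Nr4a3 did not pass it.

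**Figure D1:**
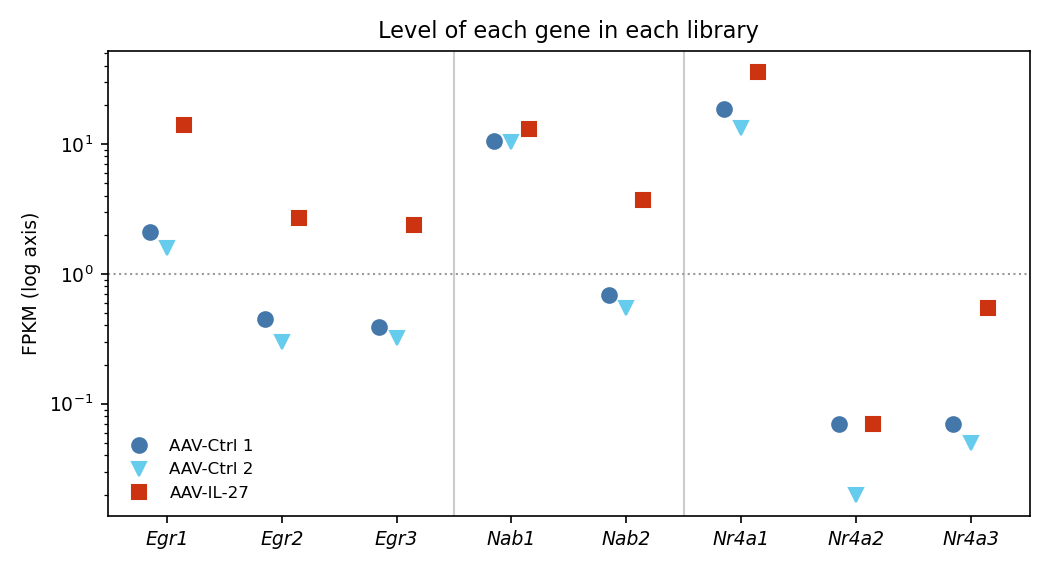
FPKM (log axis) of the 8 genes in AAV-Ctrl 1 (circles), AAV-Ctrl 2 (triangles) and the AAV-IL-27 library (squares), 1 point per library, with grey lines between the Egr, Nab and Nr4a families and a dotted line at 1 FPKM. The squares of Egr1, Egr2, Egr3, Nab2 and Nr4a3 stand well clear of both AAV-Ctrl points, that of Nr4a1 is less far above and those of Nab1 and Nr4a2 are close to AAV-Ctrl.

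Among the Egr genes, Egr1, the most abundant and the most widely used as a sign of recent stimulation, was at 2.11 FPKM in AAV-Ctrl 1, 1.57 in AAV-Ctrl 2 and 13.97 with AAV-IL-27. The AAV-Ctrl mean was 1.84 ± 0.382 (SD, n = 2), and the AAV-IL-27 value was 7.59 times this mean. On the log2(FPKM + 1) scale the difference was 2.40 from the mean, 2.27 from AAV-Ctrl 1 and 2.54 from AAV-Ctrl 2, while the AAV-Ctrl libraries differed by 0.28. By the distance to the nearer AAV-Ctrl library, Egr1 ranked 5 among the 9130 genes. The values correspond to about 117 and 88 fragments in AAV-Ctrl and 786 with AAV-IL-27 (732 to 843), so counting error is small beside this difference.

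Egr2, which in myeloid cells is known for its part in macrophage commitment and alternative activation, had 0.45 and 0.30 FPKM with AAV-Ctrl and 2.67 with AAV-IL-27. This is 7.12 times the AAV-Ctrl mean of 0.375 ± 0.106 (SD, n = 2), with a log2 difference of 1.42. Egr2 spans chr10:67535475-67542188 and rests on about 24 fragments (15.4 to 35.7) and 16 (9.15 to 26.0) in AAV-Ctrl and 147 (124 to 173) in AAV-IL-27, and the intervals do not overlap between the groups.

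Egr3, a close relative of Egr2 induced in activated lymphocytes and in muscle spindles, was at 0.39 and 0.32 FPKM with AAV-Ctrl and 2.38 with AAV-IL-27. The AAV-Ctrl mean was 0.355 ± 0.0495 (SD, n = 2), the AAV-IL-27 value 6.70 times as high and the log2 difference 1.32. Egr3 spans chr14:70077203-70082614, and its listed transcripts are between 1509 and 3940 bases long, so the values stand for between 9 and 28 fragments in AAV-Ctrl and between 65 and 175 in AAV-IL-27, and at either length the intervals do not overlap. Egr4, the remaining family member, was not found by symbol among the 16072 named genes, so it has no level here.

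The 3 Egr genes kept much the same proportions to each other at their different total levels. Egr1 was 4.69 and 5.23 times as abundant as Egr2 in AAV-Ctrl and 5.23 times with AAV-IL-27, and 5.41, 4.91 and 5.87 times as abundant as Egr3. It made up 71.5% and 71.7% of the summed Egr level in AAV-Ctrl and 73.4% with AAV-IL-27. The sum itself was 2.95 and 2.19 FPKM in AAV-Ctrl and 19.02 with AAV-IL-27. Egr2 and Egr3 were close to each other in all 3 libraries, and their order was reversed in AAV-Ctrl 2, so these neighbours did not differ beyond their spread.

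The corepressor genes differed from each other. Nab1, the constitutive member of the pair, was at 10.58 and 10.31 FPKM in AAV-Ctrl (mean 10.4 ± 0.191, SD, n = 2) and at 13.07 with AAV-IL-27. It lay 0.28 and 0.32 log2 units above AAV-Ctrl 1 and AAV-Ctrl 2, far below the call threshold, although these libraries differed from each other by only 0.034. Nab1 (chr1:52457294-52500679) rests on about 751 and 743 fragments in AAV-Ctrl and 942 with AAV-IL-27, and the AAV-IL-27 interval (883 to 1004) lies above both AAV-Ctrl intervals.

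Nab2, the inducible corepressor, was at 0.69 and 0.55 FPKM in AAV-Ctrl (mean 0.620 ± 0.0990, SD, n = 2) and at 3.70 with AAV-IL-27, 5.97 times the mean, with a log2 difference of 1.54. It ranked 12 by its distance to the nearer AAV-Ctrl library. Over the listed transcripts of Nab2 (chr10:127660918-127668568), of 2311 and 2582 bases, the values stand for 23 to 32 fragments in AAV-Ctrl and 157 to 176 with AAV-IL-27. Nab1 was 15.3 and 18.7 times as abundant as Nab2 in AAV-Ctrl and 3.53 times with AAV-IL-27. Egr1 was 3.06 and 2.85 times as abundant as Nab2 in AAV-Ctrl and 3.78 times with AAV-IL-27.

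Set against both corepressors together, the summed Egr level was 0.262 and 0.202 times the summed Nab level in AAV-Ctrl and 1.13 times with AAV-IL-27. The Nab sum was 11.27 and 10.86 FPKM in AAV-Ctrl and 16.77 with AAV-IL-27. In AAV-Ctrl the corepressor transcripts were therefore several times as abundant as those of the factors they bind, and in AAV-IL-27 the factors were slightly the more abundant. These are ratios of transcripts and say nothing of the proteins.

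**Figure D2:**
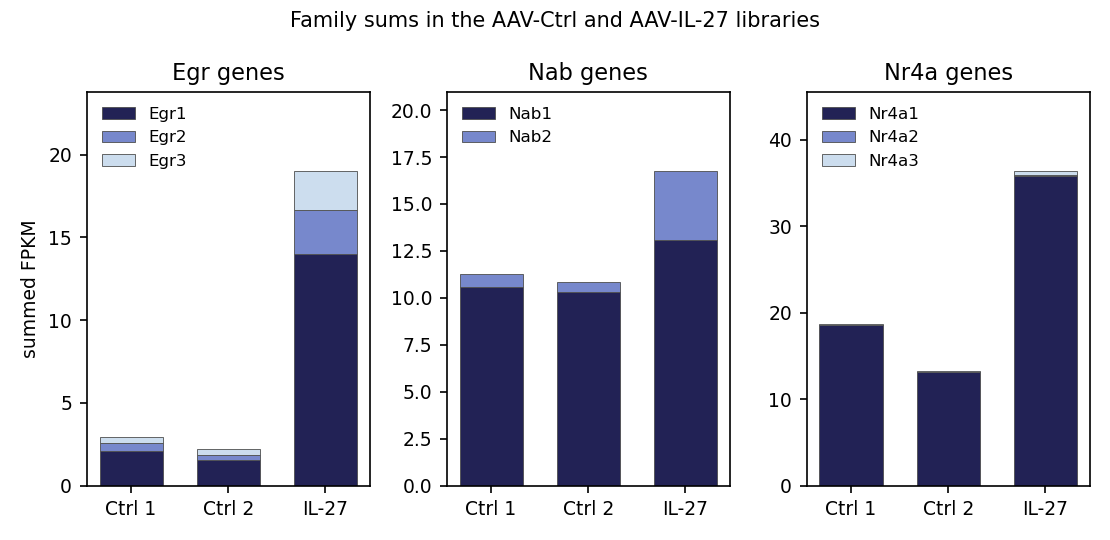
Summed FPKM (linear axis from 0) of the Egr, Nab and Nr4a genes in AAV-Ctrl 1, AAV-Ctrl 2 and the AAV-IL-27 library, with each bar split by gene and a separate axis for each family. The Egr sum was 2.95, 2.19 and 19.02 FPKM, the Nab sum 11.27, 10.86 and 16.77 with the added height split between Nab1 and Nab2, and the Nr4a sum 18.66, 13.24 and 36.41, nearly all of it Nr4a1.

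Of the nuclear receptors, Nr4a1 was the most abundant of all 8 genes in every library, at 18.52 and 13.17 FPKM in AAV-Ctrl (mean 15.8 ± 3.78, SD, n = 2) and 35.79 with AAV-IL-27. It lay 0.91 log2 units above AAV-Ctrl 1 and 1.38 above AAV-Ctrl 2, and so missed the call through AAV-Ctrl 1. Without AAV-Ctrl 1 it would be called. The AAV-Ctrl libraries themselves differed by 0.46 log2 units in Nr4a1. The values stand for about 833, 602 and 1635 fragments, and hence the gap between the AAV-Ctrl libraries is larger than counting error too.

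Nr4a3 was at 0.07 and 0.05 FPKM in AAV-Ctrl and 0.55 with AAV-IL-27. This is about 7 fragments (2.81 to 14.4) and 5 (1.62 to 11.7) against 59 (44.9 to 76.1), and the intervals do not overlap between the groups. These numbers use a transcript of 5720 bases, the only 1 of the 2 listed for Nr4a3 whose length was found. The log2 difference of Nr4a3 was only 0.55, because a pseudocount of 1 is large beside such values. With a pseudocount of 0.1 or 0.01 Nr4a3 was called higher as well. In AAV-IL-27, Nr4a1 was 65.1 times as abundant as Nr4a3, against 265 and 263 times in AAV-Ctrl.

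Nr4a2, which is best known from dopamine neurons, was near the floor, at 0.07 and 0.02 FPKM in AAV-Ctrl and 0.07 with AAV-IL-27, or between 1 and 5 fragments in each library. No difference of Nr4a2 (chr2:57106830-57124003) was detectable at this depth. Nr4a1 thus made up 98.3% to 99.5% of the Nr4a level in every library.

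By level, the order in AAV-Ctrl was Nr4a1, Nab1, Egr1, Nab2 and then Egr2 and Egr3, with Nr4a2 and Nr4a3 at or below 0.07 FPKM. In AAV-IL-27 it was Nr4a1, Egr1, Nab1, Nab2, Egr2, Egr3, Nr4a3 and Nr4a2. Egr1 thus stood at about the level of Nab1 in AAV-IL-27 (13.97 and 13.07 FPKM), whereas it had been several times lower in both AAV-Ctrl libraries. All 8 genes were lower in AAV-Ctrl 2 than in AAV-Ctrl 1, where 49.3% of the 9130 genes were, with differences of 0.03 to 0.46 log2 units. The AAV-Ctrl libraries therefore differed in 1 direction in these genes. For Egr3 and Nab1 they did so by less than the median size of 0.087 over the 9130 genes. Nr4a2 and Nr4a3 are not among the 9130. At the low values of Egr3, Nr4a2 and Nr4a3 a pseudocount of 1 makes such differences small, as for Nr4a2 at 0.07 and 0.02 FPKM. The distance from AAV-IL-27 was several times larger than that between the AAV-Ctrl libraries for Egr1, Egr2, Egr3 and Nab2.

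**Figure D3:**
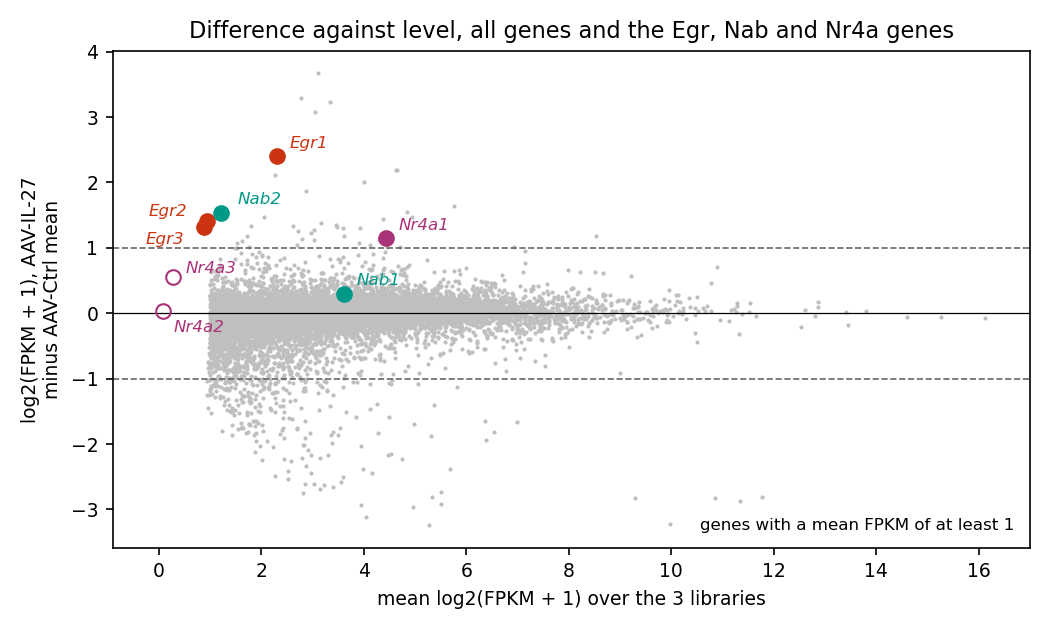
Difference in log2(FPKM + 1) between AAV-IL-27 and the AAV-Ctrl mean (vertical axis) against the mean log2(FPKM + 1) over the 3 libraries (horizontal axis) for 9130 genes averaging 1 FPKM or more (grey points) and the 8 named genes (large points, open where the mean FPKM is under 1), with dashed lines at 1 and -1. Egr1 (2.40), Nab2 (1.54), Egr2 (1.42) and Egr3 (1.32) lie at low levels above most genes, Nr4a1 (1.15) stands out at a higher level and Nab1 (0.30) lies near the bulk.

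The genes whose pattern over the 3 libraries was most like that of Egr1, by Euclidean distance of log2(FPKM + 1) after subtracting each gene's AAV-Ctrl mean, were Csf1 (0.34), Ccl3 (0.41), Ccl4 (0.54), Clec4n (0.62) and Cxcl10 (0.78). Csf1, which encodes the macrophage growth factor M-CSF, was at 17.91 and 11.10 FPKM with AAV-Ctrl and 68.01 with AAV-IL-27, the order in which values are given from here on. The chemokine gene Ccl3 was at 9.63, 8.44 and 39.20 FPKM and its neighbour Ccl4 at 4.00, 3.51 and 16.42. Clec4n, which encodes the fungal sensor dectin-2, was at 20.67, 9.10 and 66.76 FPKM, and the interferon-inducible chemokine gene Cxcl10 at 1.29, 2.85 and 11.80. Of the other 7 genes, Nab2 came next at rank 6, Egr2 at 12, Egr3 at 17 and Nr4a1 at 27, while Nab1 was at 605. With 3 libraries from 2 conditions this order mainly reflects the size of 1 difference.

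Genes that act before, beside or after these regulators were taken from 7 lists, which hold 85 different genes averaging 1 FPKM or more. Of the 85, 1 was called higher and 0 lower beside 0.307% called higher and 2.32% called lower among all 9130 genes.

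The kinases and transcription factors from Ras to SRF were measured at similar levels in all libraries. Of 19 such genes none was called, and their median log2 difference was 0.09, where that of all 9130 genes was -0.01. The extremes were Elk3, a partner of SRF, at 3.10, 3.33 and 4.73 FPKM (0.44), and the kinase gene Rps6ka3 at 16.58, 16.46 and 14.46 (-0.18). Srf itself was at 16.89, 15.54 and 18.91 FPKM. Of the 19, 13 lay above both AAV-Ctrl libraries by any margin, where 38.9% of the 9130 did.

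Many of the listed feedback genes of the ERK pathway are transcribed when ERK is active and help to switch it off again. The list had a median of 0.25 over 7 genes averaging 1 FPKM or more, and of -0.01 over all 12 when genes of low level were kept. Dusp5, which encodes a nuclear ERK phosphatase, was at 7.45 and 8.47 FPKM in AAV-Ctrl and 21.20 with AAV-IL-27 and was the only gene of the 7 lists to be called higher (1.31). Dusp2, another nuclear phosphatase gene, was at 1.60, 1.79 and 4.43 FPKM (1.01) and missed the call at 0.96 above AAV-Ctrl 2. Dusp6, whose product holds ERK in the cytoplasm, was at 110.42, 124.37 and 199.49 FPKM (0.76). The other 4 lay between -0.14 and 0.25, among them Dusp1, a phosphatase gene of the broader stress response, at 214.74, 223.45 and 260.48 FPKM (0.25) and the Ras pathway inhibitor gene Spry2 at 2.66, 2.08 and 2.04 (-0.14).

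Other immediate early genes had a median of 0.11 over 23 genes averaging 1 FPKM or more, and none was called. The highest was Klf10, a TGF-beta-inducible repressor gene, at 12.94, 9.48 and 21.35 FPKM (0.89), and the lowest Myc at 2.19, 1.73 and 1.07 (-0.51). The most abundant were Zfp36, which encodes the mRNA-destabilising protein tristetraprolin, at 864.34, 893.36 and 1023.15 FPKM (0.22), Junb at 516.47, 419.22 and 434.30 (-0.10) and Fos at 243.39, 253.62 and 257.42 (0.05). Of the 23, 17 lay above both AAV-Ctrl libraries by any margin, where 38.9% of the 9130 genes did. Thus Fos, which is switched on through SRF as Egr1 is, was at almost the same level in the 3 libraries in which Egr1 differed by several times.

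**Figure D4:**
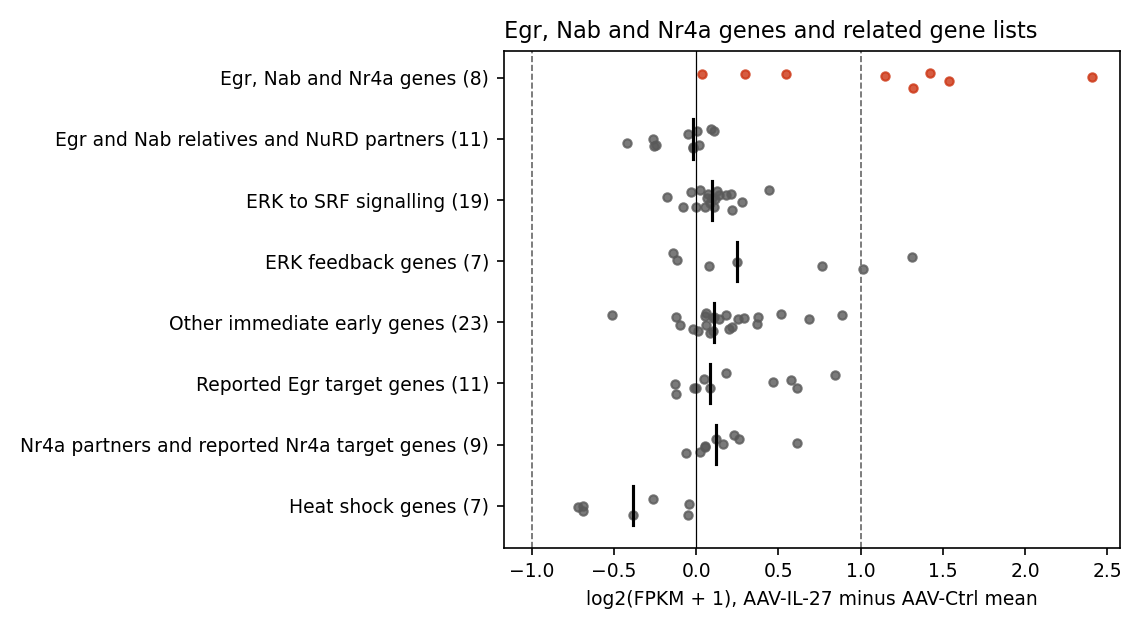
Difference in log2(FPKM + 1) between AAV-IL-27 and the AAV-Ctrl mean for the 8 Egr, Nab and Nr4a genes (red, all shown) and for the genes averaging 1 FPKM or more in 7 related lists (grey), 1 point per gene with the number of genes in brackets, a black bar at each list's median and dashed lines at 1 and -1. The list medians lie between -0.38 (heat shock genes) and 0.25 (ERK feedback genes), and only Dusp5 (1.31) and Dusp2 (1.01) of the grey points lie above 1.

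The listed reported Egr target genes, which leave out Nab2, were not called in either direction. Of 11 averaging 1 FPKM or more, 7 lay above both AAV-Ctrl libraries and 2 below both, where 38.9% and 41.9% of the 9130 genes did. Their median was 0.09 over 11 genes, with Socs1, a JAK inhibitor gene, highest at 3.35, 3.55 and 6.97 FPKM (0.84) and Ptger4, a prostaglandin receptor gene, lowest at 4.71, 5.50 and 4.57 (-0.13). Tnf was at 17.21, 17.46 and 17.96 FPKM and Icam1, which encodes an adhesion molecule, at 4.71, 5.38 and 7.99.

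Partners and reported targets of the Nr4a receptors had a median of 0.12 over 9 genes, and none was called. Of the 9, 7 lay above both AAV-Ctrl libraries and 0 below both, where 38.9% and 41.9% of the 9130 genes did. The retinoid X receptors, with which Nr4a1 and Nr4a2 can pair, were at 5.84, 6.85 and 6.45 FPKM (Rxra) and at 21.10, 23.40 and 26.86 (Rxrb). Spp1, which encodes osteopontin, was highest at 6.07, 8.01 and 11.18 FPKM (0.61), and the enolase gene Eno3 was lowest at 3.25, 2.79 and 2.85 (-0.06).

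The chromatin partners of Nab, the NuRD subunits, had a median of -0.02 over 11 genes (0.02 after scaling the libraries to equal FPKM totals), and none was called. Chd4, the NuRD remodelling ATPase to which Nab proteins bind, was at 49.67, 49.05 and 48.68 FPKM. Hdac2, a deacetylase gene, was the lowest at 5.40, 4.81 and 3.55 FPKM (-0.42) and Mta3 the highest at 11.16, 12.17 and 12.63 (0.11).

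Heat shock genes, which respond to stress of the cells before lysis, had a median of -0.38 over 7 genes, and all 7 lay below both AAV-Ctrl libraries, as did 41.9% of the 9130 genes. Hspe1, a mitochondrial chaperonin gene, was lowest at 5.25, 6.11 and 3.05 FPKM (-0.72) and Dnajb1 highest at 12.10, 11.82 and 11.59 (-0.04).

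Since Egr and Nr4a genes are also active in other cell types, their markers are given beside these values. Classical monocyte markers had a median of 0.49 over 8 genes averaging 1 FPKM or more and a summed level of 1133 to 1193 FPKM in AAV-Ctrl and 1282 with AAV-IL-27, most of it Ly6c2. Among these 8, 1 was called higher, where 0.307% of the 9130 genes were. It was Cd14, which encodes the lipopolysaccharide co-receptor, at 14.95, 12.89 and 39.62 FPKM. Of the 8, 6 lay above both AAV-Ctrl libraries and 1 below both, where 38.9% and 41.9% of the 9130 genes did. The 1 below was Irf8, at 7.49, 7.89 and 4.66 FPKM (-0.62). Nonclassical monocyte markers, of interest for Nr4a1, had a median of -0.01 over 8 genes and a summed level of 297 to 298 FPKM in AAV-Ctrl and 286 with AAV-IL-27. Of these 8, Cd36 (3.04, 2.37 and 0.31 FPKM) and Fabp4 (10.66, 10.13 and 3.90 FPKM) were called lower, where 2.32% of the 9130 genes were. Macrophages express both of these genes too. The part of these cells in the levels of the 8 genes was not tested.

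T cell and NK cell markers, of interest for Egr2, Egr3 and Nr4a genes, were low. The 11 T cell markers summed to 12.66 to 13.54 FPKM in AAV-Ctrl and 11.16 with AAV-IL-27, with Cd3e at 0.11, 0.23 and 0.08 FPKM. The 7 NK cell markers summed to 2.67 and 5.00 FPKM in AAV-Ctrl and 5.66 with AAV-IL-27. Dendritic cell markers summed to 25.76 to 27.30 FPKM in AAV-Ctrl and 37.62 with AAV-IL-27, most of it Itgax and Bst2, which other myeloid cells also express, while Flt3 was at 0.23, 0.34 and 0.23 FPKM. The summed markers of B cells (157.97 to 230.17 against 106.65 FPKM), basophils, mast cells and eosinophils (39.25 to 41.22 against 26.27), megakaryocytes (77.17 to 86.37 against 32.54), mesenchymal stroma (26.84 to 29.59 against 8.47) and endothelium (8.22 to 8.34 against 5.37) were all lower in AAV-IL-27, as were those of macrophages and erythroid cells. Such sums are dominated by a few abundant genes, and single markers of low level lay above both AAV-Ctrl libraries, such as the NK cell granzyme gene Gzma at 0.13, 0.38 and 1.35 FPKM and the IgE receptor gene Fcer1a of basophils and mast cells at 0.11, 0.00 and 0.60. The source of the transcripts of Egr1, Egr2, Egr3, Nab2 or any other of the 8 genes was not tested.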

How the data were processed

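RNA-seq values were analysed for BM Ly6G+ cells from AAV-Ctrl (2 libraries) and AAV-IL-27 (1 library) mice, grouped by the sample labels, 1 mouse per library by the design text, which gives 2 AAV-Ctrl mice and 1 AAV-IL-27 mouse but counts 4 mice in all. The table has 1 further column of FPKM values, named as another IL-27 replicate, which could be tied to none of the listed samples and was left aside. Per the labels, mRNA was oligo-dT enriched and strand-marked. The authors deposited FPKM values to 2 decimals, and their notes name the mm10 build. The aligner and counting tool are not given in the sources used here. Of 16073 rows, 1 without a gene symbol was left out.

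The 8 genes, the lists and the rules for naming genes were chosen with earlier results of these data known. Named from each list are the genes called, the highest and lowest differences, and the most abundant genes. In addition, Ly6g, Srf, Dusp1, Dusp2, Dusp6, Spry2, Tnf, Icam1, Rxra, Rxrb, Chd4, Cd3e, Flt3, Gzma and Fcer1a were named for their roles or levels, after their values were seen. Differences used a pseudocount of 1, a minimum mean of 1 FPKM and a threshold of 1 log2 unit. Alternatives were other pseudocounts, filters, thresholds and scalings, and leaving out each AAV-Ctrl library. Depth was fitted to values of single-transcript genes between 250 and 1000 bases long in GENCODE M21, with 60 bases taken off each length, and tested on simulated data, as were the calls. Fragment numbers are estimates, since not all low values were near whole and lengths of genes with several transcripts may differ from those the authors used. No count test was run. Scripts ran under Python 3.11.15 with pandas 2.3.3 and numpy 2.4.6, with intervals from scipy 1.17.1 and plots from matplotlib 3.10.9.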

Additional observations from a re-analysis of the deposited data

How the results depend on the processing

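Egr1 was called higher under each alternative run on the 8 genes, and Egr2, Egr3 and Nab2 under each except a threshold of 2 log2 units, which left 1 of the 8 genes higher, and filters on an AAV-Ctrl mean of at least 1 FPKM or a mean of at least 5 FPKM over the 3 libraries, both applied to these genes after seeing the data, each of which also left 1 because Egr2, Egr3 and Nab2 lie below them. Pseudocounts of 0.1 and 0.01 added Nr4a3, leaving out AAV-Ctrl 1 added Nr4a1, and a threshold of 0.5 added both. Over pseudocounts, scalings and left-out libraries, the log2 difference ranged from 2.27 to 2.93 for Egr1, from 1.34 to 2.83 for Egr2, from 1.28 to 2.72 for Egr3, from 1.48 to 2.57 for Nab2, from 0.91 to 1.38 for Nr4a1, from 0.53 to 3.01 for Nr4a3, from 0.28 to 0.34 for Nab1 and from 0.00 to 0.71 for Nr4a2. None of 48 such values was below 0, in genes chosen with these values known, and 14 shifted past 1 SD of the controls. Leaving out 1 of the 2 AAV-Ctrl libraries cannot shift the difference of a gene that far, so those settings could not add to the 14. Of 56 list medians, 11 moved likewise, and those of the ERK feedback genes (-0.01 with no filter on low values) and of the NuRD list (0.02 with equal FPKM totals) crossed 0.

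Among all genes, 28 were higher and 212 lower. With a pseudocount of 0.1, 396 were lower, and with 0.01, 46 were higher and 425 lower, since a smaller pseudocount widens low genes. With a minimum mean of 5 FPKM, which tests fewer genes, 93 were lower. A threshold of 0.5 gave 143 higher and 640 lower and one of 2 gave 5 and 39. Without AAV-Ctrl 1 or AAV-Ctrl 2, 40 or 49 were higher and 294 or 243 lower, since the call then needs a distance from a single control. No paired analysis was possible because the sample labels pair no AAV-Ctrl library with the AAV-IL-27 library. The further column named as an IL-27 replicate was not used here, so spread among AAV-IL-27 mice is unmeasured, and values under 0.1 FPKM rest on few fragments.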
